A study of Mus musculus with 14 samples.

Results

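The genes of the mitochondrial ribosome were taken as every gene of the count table whose symbol begins with Mrpl or Mrps followed by a digit, with names of pseudogenes left out. These were 77 of the 24054 genes in the table, 48 named for the large subunit (Mrpl) and 29 for the small subunit (Mrps). They were measured by RNA sequencing of poly(A) RNA from left ventricles of mice recorded as C56Bl6, in 14 libraries of 3 groups. Control, with 5 libraries, stood for a standard diet of 10 weeks, and its labels name no virus. The 4 libraries called HFpEF-scr came from mice given High-Fat food with L-NAME, an inhibitor of nitric oxide synthase, for 6 weeks and AAV-scramble-sh, an adeno-associated virus carrying a scrambled short hairpin, for 4 weeks. The 5 libraries called HFpEF-FoxO1-sh had the same diet for 6 weeks and AAV-FoxO1-sh, a hairpin named for the transcription factor FoxO1, for 4 weeks. HFpEF is heart failure with preserved ejection fraction, of which this diet is a mouse model. The labels give no sex or age, no promoter that drives the hairpins, and no statement that replicates are separate mice, so p-values measure the spread between these libraries. HFpEF-scr and HFpEF-FoxO1-sh each differed from control in diet, virus and weeks at once, and these cannot be told apart.

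The mitochondrial ribosome translates the few messages of the mitochondrial genome, all of which code for inner-membrane subunits of the respiratory chain and the ATP synthase. Its own RNA is made inside the organelle, whereas every one of its proteins is encoded in the nucleus, made in the cytosol and imported. Part of these proteins have counterparts in the bacterial ribosome and part are found only in mitochondria, and heart muscle, which lives on oxidative phosphorylation, depends on them: inherited defects of MRPL3, MRPL44 and MRPS22 cause cardiomyopathy in infants.

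Libraries held between 13174118 and 21247155 expected counts, and CPM below are counts per 1000000 after scaling for library size and composition. All 77 genes passed the filter on low counts, as did 13588 genes in all, with between 142 and 5980 counts for a gene in a library. Foxo1 itself was not lower in the libraries that carry the HFpEF-FoxO1-sh label. It ran from 39.3 to 46.0 CPM there, from 40.1 to 48.3 in HFpEF-scr and from 42.2 to 47.0 in control, with a log2 difference of -0.04 ± 0.06 (SE) between the first 2 (edgeR, adjusted p = 0.780). All directions given for those libraries rest on their labels. Within HFpEF-scr, libraries 1 and 2 had the highest levels of immediate early genes, with mean log2 CPM of 6.40 and 6.98 over 11 such genes against 3.99 and 5.48 in libraries 3 and 4. The same mean also varied widely in the other groups, from 2.27 to 5.83 in control and from 2.26 to 5.34 in HFpEF-FoxO1-sh. Counts are also given without both HFpEF-scr 1 and 2, an alternative chosen after the data were seen. Cardiomyocyte markers were abundant in every library, at a summed 86490 to 103504 CPM over 8 genes, and 3 adipocyte markers summed to at most 1.04 CPM.

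The promoters below are those of Mrps30, Mrps27 and Mrps15, which had small p-values in the comparisons, those of the paralogs Mrps18a, Mrps18b and Mrps18c, and, chosen after their content was seen, those of Mrps11, which starts head to head with Mrpl46, and of Mrpl44. Each runs 5′ to 3′ from 250 bases before to 50 bases after the RefSeq start on GRCm38.p6. Capitals mark matches to letters bound by regulators of nuclear genes for mitochondria: GCGCA and GCGC with 1 base of any kind between them for NRF-1, CCGGAAG for the ETS factor GABP, AAGATGG followed directly by CGG for YY1, and GTAAACA for FOXO factors, on either strand, the reverse strand being read as its complement. Mrpl4, with the smallest p of all, has no entry in the promoter table.
Mrps30: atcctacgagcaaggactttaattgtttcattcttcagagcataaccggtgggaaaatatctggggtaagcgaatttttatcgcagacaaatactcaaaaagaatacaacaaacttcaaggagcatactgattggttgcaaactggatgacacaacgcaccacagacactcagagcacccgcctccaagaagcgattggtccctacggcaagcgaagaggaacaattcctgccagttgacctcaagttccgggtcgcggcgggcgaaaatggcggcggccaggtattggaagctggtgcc
Mrps27: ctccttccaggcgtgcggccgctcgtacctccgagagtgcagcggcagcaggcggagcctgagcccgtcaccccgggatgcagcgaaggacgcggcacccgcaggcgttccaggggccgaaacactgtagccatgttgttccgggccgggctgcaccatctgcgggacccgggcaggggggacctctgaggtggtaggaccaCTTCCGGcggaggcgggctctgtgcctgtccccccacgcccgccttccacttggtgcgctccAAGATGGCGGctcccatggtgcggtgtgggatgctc
Mrps15: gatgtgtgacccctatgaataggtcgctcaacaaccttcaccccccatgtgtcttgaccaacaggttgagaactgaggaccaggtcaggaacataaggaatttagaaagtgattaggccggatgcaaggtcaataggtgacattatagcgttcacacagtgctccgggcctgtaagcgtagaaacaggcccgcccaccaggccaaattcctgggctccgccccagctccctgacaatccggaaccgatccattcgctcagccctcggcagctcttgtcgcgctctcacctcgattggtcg
Mrps18a: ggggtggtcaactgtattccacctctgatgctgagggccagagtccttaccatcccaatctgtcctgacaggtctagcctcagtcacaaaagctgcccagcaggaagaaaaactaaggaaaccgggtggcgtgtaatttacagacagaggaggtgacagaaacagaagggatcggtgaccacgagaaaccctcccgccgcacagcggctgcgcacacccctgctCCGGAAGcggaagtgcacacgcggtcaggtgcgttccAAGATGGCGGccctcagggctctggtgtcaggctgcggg
Mrps18b: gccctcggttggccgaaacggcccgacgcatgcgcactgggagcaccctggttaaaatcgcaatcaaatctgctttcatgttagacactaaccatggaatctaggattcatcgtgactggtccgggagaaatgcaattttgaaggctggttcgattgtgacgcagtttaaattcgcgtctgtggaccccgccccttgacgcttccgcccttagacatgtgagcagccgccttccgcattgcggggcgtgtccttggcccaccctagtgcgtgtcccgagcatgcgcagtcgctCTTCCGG
Mrps18c: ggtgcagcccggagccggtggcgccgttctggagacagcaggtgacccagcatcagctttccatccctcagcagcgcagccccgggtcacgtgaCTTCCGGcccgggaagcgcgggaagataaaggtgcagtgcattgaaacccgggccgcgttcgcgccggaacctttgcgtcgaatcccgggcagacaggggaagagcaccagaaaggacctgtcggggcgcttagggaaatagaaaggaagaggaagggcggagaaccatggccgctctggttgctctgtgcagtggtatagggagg
Mrps11: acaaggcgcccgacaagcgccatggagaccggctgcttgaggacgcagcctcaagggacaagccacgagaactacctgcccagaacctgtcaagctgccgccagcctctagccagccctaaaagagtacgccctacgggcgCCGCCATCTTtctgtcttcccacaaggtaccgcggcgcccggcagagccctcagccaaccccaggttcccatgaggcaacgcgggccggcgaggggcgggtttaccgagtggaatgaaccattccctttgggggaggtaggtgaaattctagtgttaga
Mrpl44: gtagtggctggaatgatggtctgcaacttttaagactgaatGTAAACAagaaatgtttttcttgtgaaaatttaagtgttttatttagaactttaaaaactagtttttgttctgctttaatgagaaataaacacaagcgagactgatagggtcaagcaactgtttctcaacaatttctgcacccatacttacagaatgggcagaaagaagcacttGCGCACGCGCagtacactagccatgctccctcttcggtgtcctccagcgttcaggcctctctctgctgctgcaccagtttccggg

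The windows lie at chr13:118387203-118387502 for Mrps30 (minus strand), chr13:99344536-99344835 for Mrps27 (plus), chr4:126046678-126046977 for Mrps15 (plus), chr17:46110754-46111053 for Mrps18a (plus), chr17:35916391-35916690 for Mrps18b (minus), chr5:100798509-100798808 for Mrps18c (plus), chr7:78782881-78783180 for Mrps11 (plus) and chr1:79775768-79776067 for Mrpl44 (plus). Mrps27 and Mrps18a were alike in holding both an ETS match before the start, from bases -48 and -26, and a YY1 match after it, from bases 15 and 12. Mrps18b and Mrps18c held an ETS match only, from bases 44 and -156. The window of Mrps11 overlaps that of Mrpl46 by 141 bases, and its YY1 match, from base -109, lies before its start. In Mrpl44 an NRF-1 match began at base -35 and a FOXO match at base -209. The windows of Mrps30 and Mrps15 held none of these letters, which says nothing about binding elsewhere.

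Promoters were in the table for 68 of the 77 genes. An ETS match stood in 24 of them (35.3%), against 17.2% of the 10172 tested genes with a promoter and 9.12% of all 27025 in the table. NRF-1 letters were in 13 (19.1%), against 10.1% of tested genes, and YY1 letters in 5 (7.35%), against 2.03%. FOXO letters were in 2, Mrpl40 and Mrpl44 (2.94%), against 2.39% of tested genes. TATAAA, the core of the TATA box, was in 4 (5.88%), against 7.23%. Median GC content was 58.2%, between that of all genes (52.7%) and of tested genes (61.0%). The median number of CpG in a window was 21, against 7 and 20. By subunit, NRF-1 letters were in 10 of 42 large-subunit promoters (23.8%) and 3 of 26 small-subunit ones (11.5%), and ETS letters in 13 (31.0%) and 11 (42.3%). These matches are a description of letters, and the NRF-1, ETS and YY1 searches can overlap where motifs abut.

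**Figure D1:**
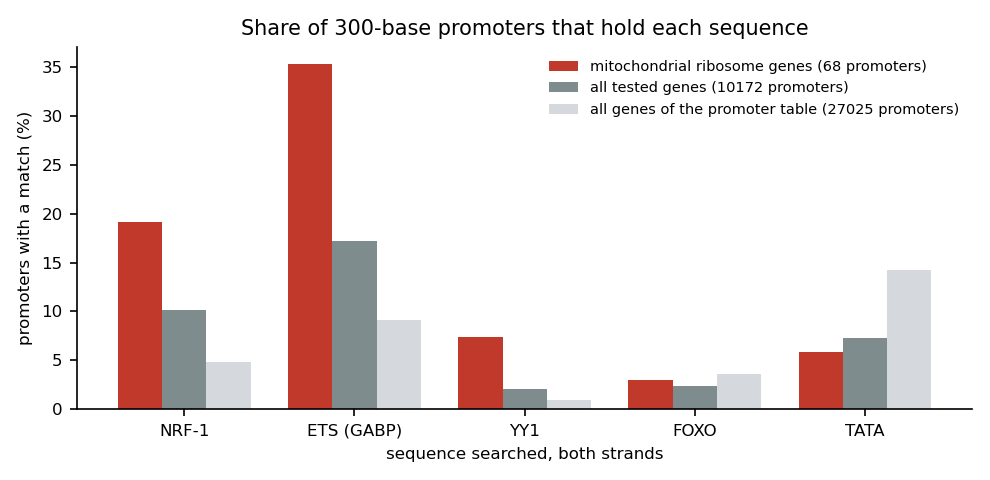
Share of promoters of 300 bases with at least 1 match to each set of letters, in percent, for the 68 mitochondrial ribosome genes with a promoter, for tested genes and for all genes of the table. The ETS bar of the mitochondrial ribosome genes reaches 35.3%, against 17.2% of tested genes, and their FOXO bar 2.94% against 2.39%.

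A form of neighbourhood was also more frequent among these genes, though most of them lacked it. In the GENCODE annotation of GRCm38, 33 of the 77 (42.9%) had the start of another protein-coding gene on the opposite strand within 1000 bases, against 1915 of 12436 tested protein-coding genes (15.4%). One such pair holds a gene of each subunit, Mrpl46 and Mrps11 on chromosome 7, whose RefSeq starts are 42 bases apart. Some of the other partners, picked here as examples, also serve mitochondria. Mrps12 starts 172 bases from Sars2, the mitochondrial seryl-tRNA synthetase, and Mrps27 81 bases from Ptcd2, a mitochondrial RNA-binding protein. Mrpl36 starts 29 bases from Ndufs6 and Mrpl47 615 bases from Ndufb5, both subunits of complex I. Mrpl43 starts 779 bases from Twnk, the helicase of mitochondrial DNA. The genes themselves lay on 17 chromosomes, with 10 on chromosome 11.

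All 77 genes were expressed in these ventricles. Mean levels ran from 13.1 to 257 CPM with a median of 43.9, and together the genes took 0.363% to 0.426% of a library's counts. Per length of exon, the median was 17.6 CPM per kilobase against 4.31 over tested genes with a length, 23.9 in the large subunit and 12.8 in the small. The highest levels per kilobase were those of Mrps21 (97.3), Mrps23 (85.5) and Mrpl34 (78.1), and the lowest those of Mrps10 (2.53), Mrpl47 (3.41) and Mrps17 (3.83). Since lengths are those of all annotated exons together, long untranslated ends lower such a value. Within groups the genes varied little: the SD of log2 CPM was least for Mrpl3 (0.048), Mrpl54 (0.048) and Mrpl9 (0.057) and greatest for Mrpl34 (0.172), Mrpl47 (0.149) and Mrps22 (0.141).

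Both subunits were lower in HFpEF-scr than in control. The mean log2 CPM over the 48 large-subunit genes was 5.59 ± 0.04 (SD, n = 5) in control, 5.50 ± 0.04 (n = 4) in HFpEF-scr and 5.59 ± 0.05 (n = 5) in HFpEF-FoxO1-sh as labelled. Over the 29 small-subunit genes it was 5.39 ± 0.04, 5.27 ± 0.05 and 5.36 ± 0.05. In both subunits every HFpEF-scr library was below every control library, the highest at 5.53 against 5.54 for the large and at 5.31 against 5.33 for the small. Library 5 of HFpEF-FoxO1-sh, at 5.51 and 5.27, was the one of its group that lay among the HFpEF-scr libraries.

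**Figure D2:**
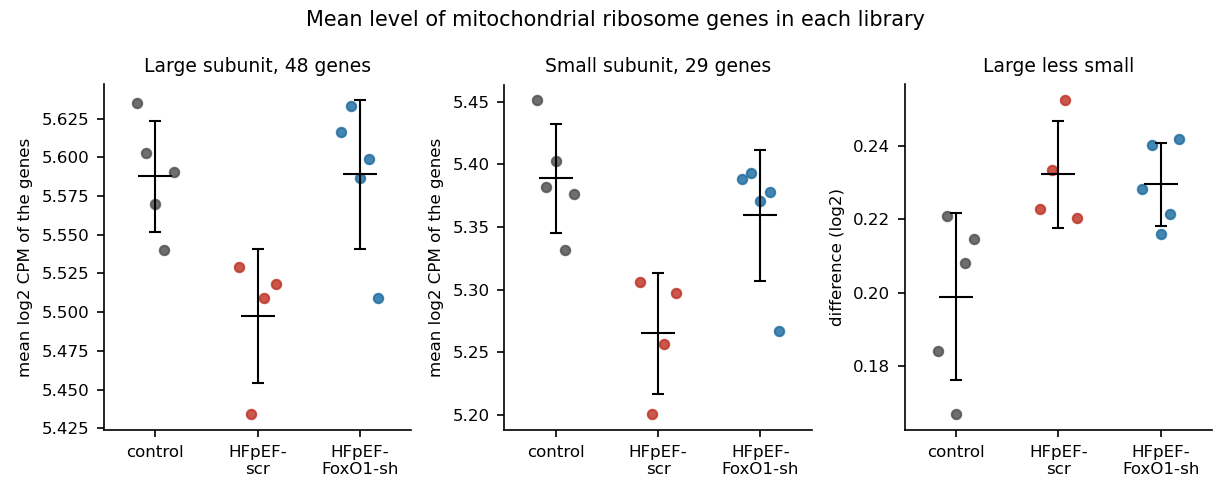
Mean log2 CPM of the 48 large-subunit and 29 small-subunit genes, and large less small, in each library (points), with the mean and SD of each group (bars); the y axes do not start at 0. HFpEF-scr lies lowest for both subunits, and library 5 of HFpEF-FoxO1-sh, at 5.51 and 5.27, is the lowest of its group.

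The distance between the subunits differed less. Large less small was 0.20 ± 0.02 log2 units in control (range 0.167 to 0.221), 0.23 ± 0.01 in HFpEF-scr (0.220 to 0.253) and 0.23 ± 0.01 in HFpEF-FoxO1-sh (0.216 to 0.242), so the ranges of control and of each other group touched. With subunits set by place in the ribosome rather than by name, and proteins under other names added, the step from control to HFpEF-scr was 0.02 in place of 0.03. No test was made of these scores, since the genes were chosen with results of these data known.

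Gene by gene, 11 of the 77 fell in HFpEF-scr against control and none rose (edgeR quasi-likelihood test, adjusted p under 0.05 over all tested genes), while 3.70% of all tested genes fell and 3.66% rose. At an unadjusted p under 0.05 28 of the 77 were lower and 0 higher, against 11.6% and 12.0% of all tested genes. DESeq2 called 14 lower and 0 higher, against 4.58% and 5.00%, and limma voom 10 lower and 0 higher, against 3.39% and 3.44%. The estimate was below 0 for 68 of 77 genes, with a median log2 fold change of -0.10, or -6.65%, where all tested genes had a median of 0.00. In the large subunit 4 of 48 fell, with a median of -0.09, and in the small 7 of 29, with a median of -0.12. All libraries of HFpEF-scr were below all of control for 11 genes, 7 large and 4 small, as for 4.64% of all tested genes, and above all of control for none, against 4.29%.

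**Figure D3:**
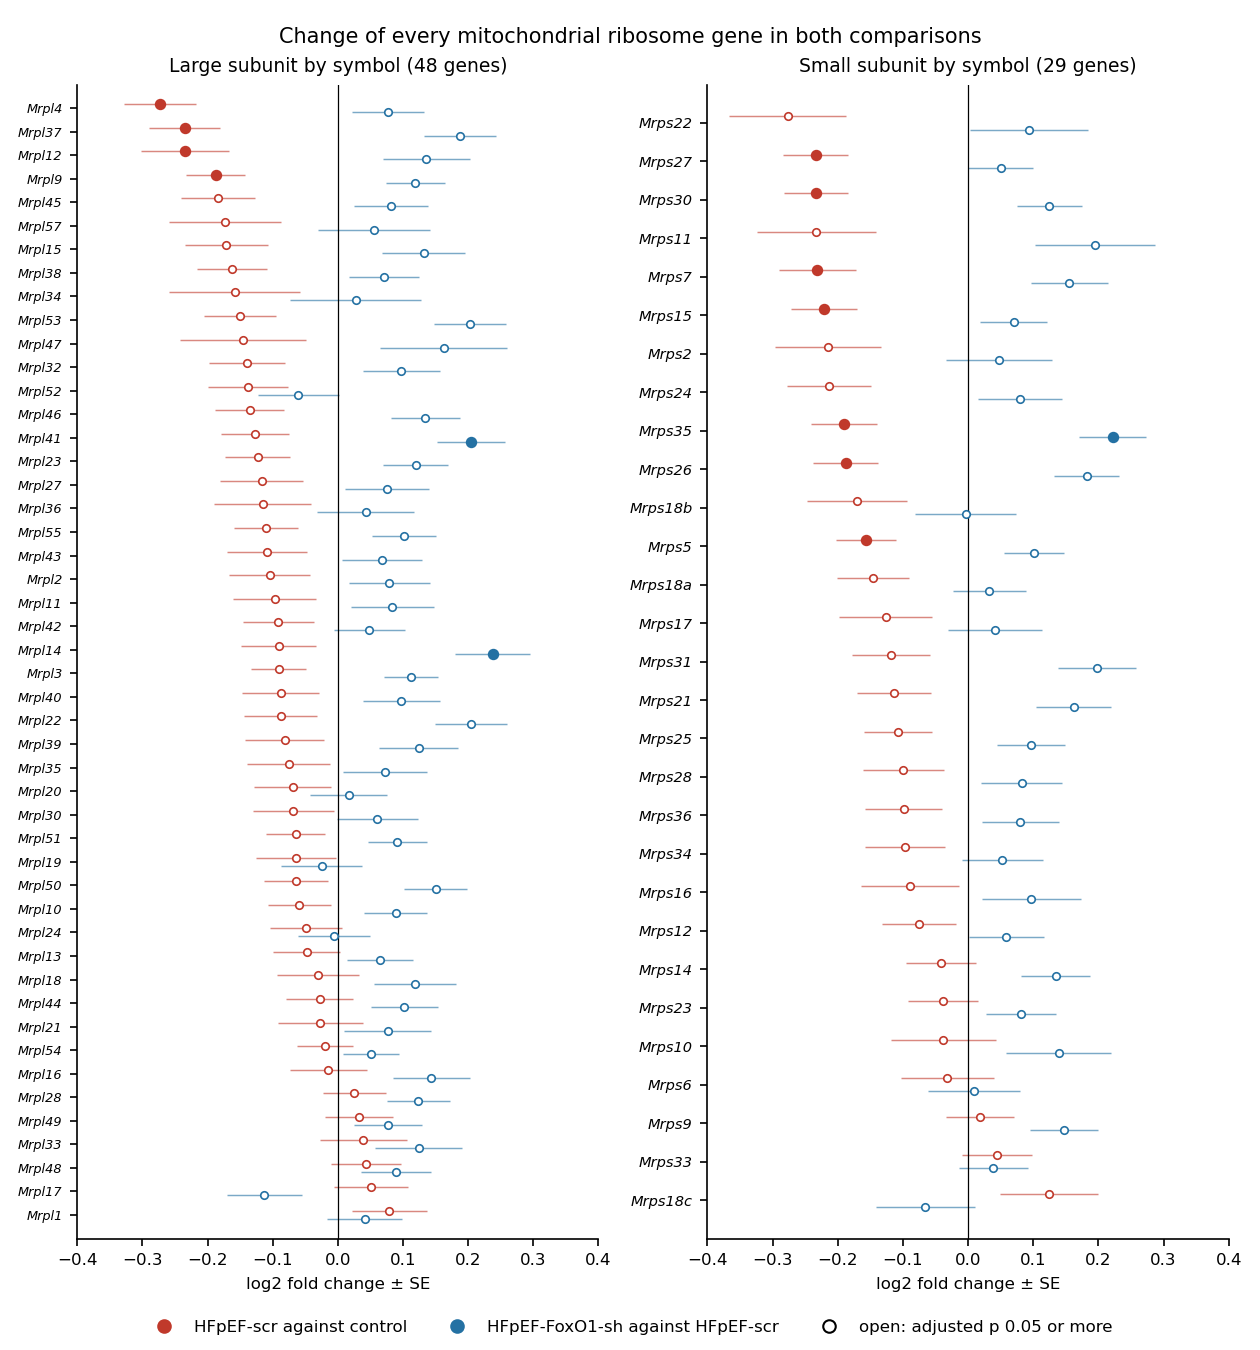
Log2 fold change with its SE for every mitochondrial ribosome gene, in HFpEF-scr against control (red) and HFpEF-FoxO1-sh against HFpEF-scr (blue), by subunit; filled points passed the adjusted threshold. Of the 77 red points 68 lie below 0, and of the 77 blue points 71 lie above it; both comparisons use the HFpEF-scr libraries.

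Among large-subunit genes with a bacterial counterpart, Mrpl4, the counterpart of L4, was at 119, 112, 108, 104 and 109 CPM in control and at 92.8, 89.5, 96.1 and 87.1 in HFpEF-scr. The groups did not overlap. It fell by 0.27 ± 0.05 (SE) on the log2 scale, or 17.2% (edgeR, adjusted p = 0.00794). Its exons, on chromosome 9 from 21002738 to 21008839, are shared with no other annotated gene. Mrpl9, the counterpart of L9, went from 79.7 ± 4.11 CPM (SD, n = 5) to 70.0 ± 2.63 (n = 4), a log2 change of -0.19 ± 0.05 (edgeR, adjusted p = 0.0217). Mrpl12, the stalk protein that answers to bacterial L7/L12 and contacts translation factors, went from 127 ± 8.00 to 108 ± 9.20 CPM, a log2 change of -0.23 ± 0.07 (edgeR, adjusted p = 0.0453). Its value is uncertain in so far as the antisense gene Gm16755 covers 13.1% of its exon bases. Mrpl37, a protein of the large subunit that bacteria lack, went from 64.4 ± 2.23 to 54.7 ± 4.03 CPM, a log2 change of -0.24 ± 0.06 (edgeR, adjusted p = 0.0182).

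Mrps30, though named for the small subunit, sits in the large one. It was at 42.2, 42.8, 44.8, 40.8 and 41.3 CPM in control and at 35.1, 36.4, 35.4 and 37.4 in HFpEF-scr. Every HFpEF-scr library lay below every control, and the log2 change was -0.23 ± 0.05 (edgeR, adjusted p = 0.0113). With Mrps30 and Mrps18a, which shares that place, counted as large, 5 of 50 large-subunit genes fell and 6 of 26 small-subunit ones. The share over all tested genes was 3.70%. Mrps36 was set aside as a component of the 2-oxoglutarate dehydrogenase complex (45.3 ± 3.27 CPM in HFpEF-scr, 48.5 ± 3.44 in control).

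In the small subunit, Mrps27, a pentatricopeptide repeat protein found only in mitochondria, was at 59.3, 64.3, 59.6, 58.4 and 63.0 CPM in control and at 55.9, 48.1, 52.0 and 51.1 in HFpEF-scr. The groups did not overlap, and the log2 change was -0.23 ± 0.05 (edgeR, adjusted p = 0.0119). An antisense gene, 6430562O15Rik, covers 24.2% of its exon bases, and with the strand setting of the counting not given, its reads cannot be told apart there. Mrps15, the counterpart of S15, was at 62.1, 63.3, 61.0, 63.3 and 60.1 CPM in control and at 50.6, 53.0, 54.6 and 54.4 in HFpEF-scr. Again no library crossed, and the log2 change was -0.22 ± 0.05 (edgeR, adjusted p = 0.0169). Of the other 4 called, Mrps7 (counterpart of S7, in the head of the subunit) changed by -0.23 ± 0.06, Mrps26 by -0.19 ± 0.05 and Mrps35 by -0.19 ± 0.05, the last 2 being proteins that bacteria lack. Of the exon bases of Mrps7, 11.9% lie under Gga3 and Mif4gd on the other strand, so its value is uncertain to that extent. Mrps5, the counterpart of S5, was named only after its value was seen, to complete the 11, and lay at the threshold (log2 change -0.16 ± 0.05, edgeR, adjusted p = 0.0499).

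**Figure D4:**
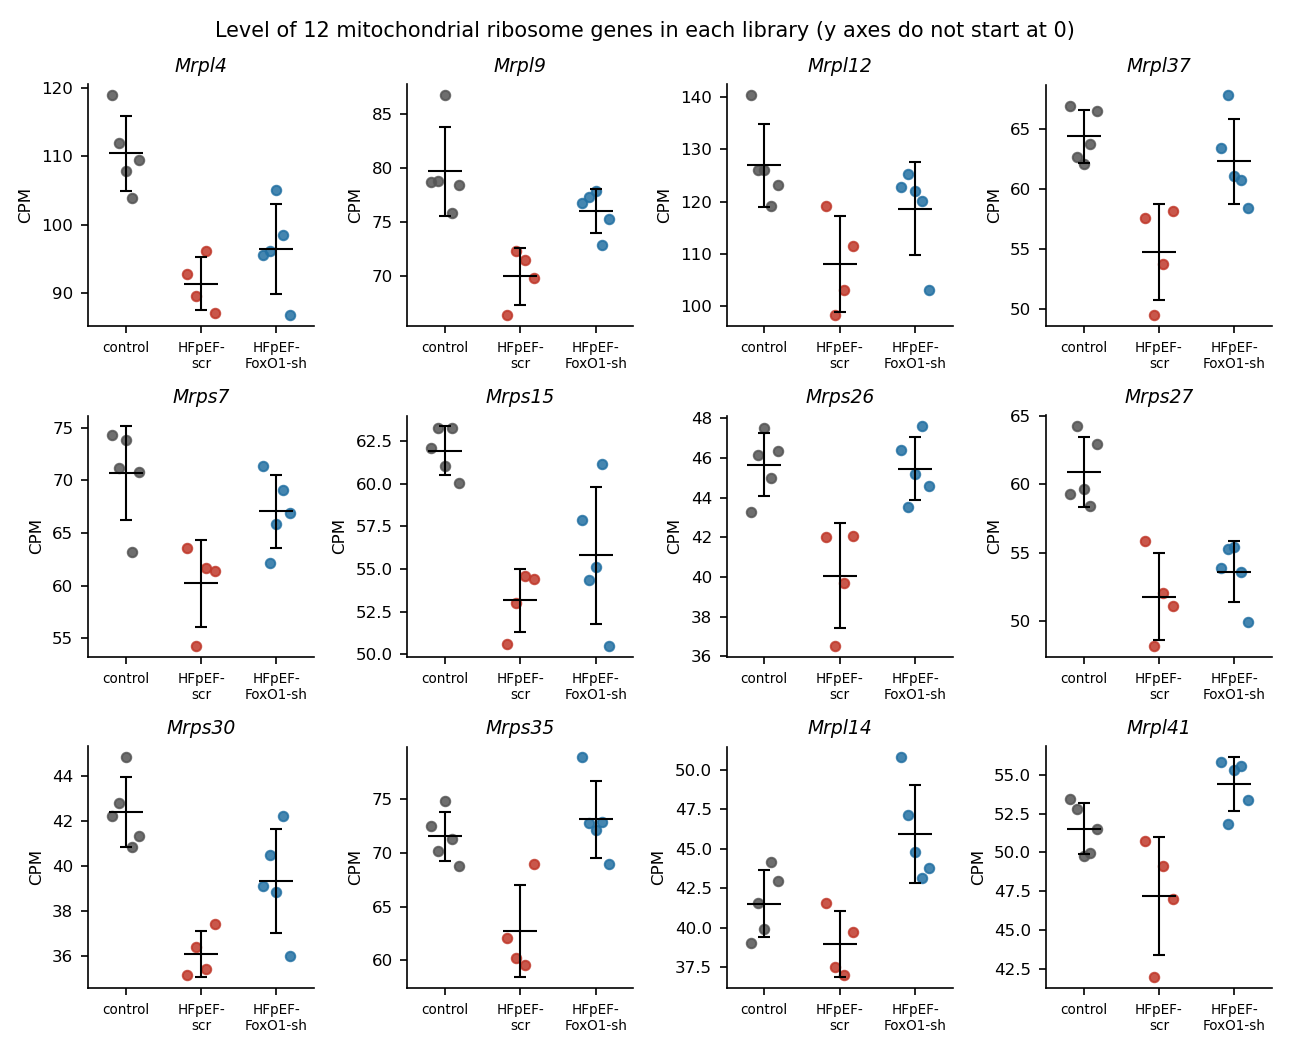
CPM in each library (points) with the mean and SD of each group (bars) for 10 genes that fell in HFpEF-scr against control and for Mrpl14 and Mrpl41, which rose in HFpEF-FoxO1-sh against HFpEF-scr; the y axes do not start at 0. Mrpl4 separates control (104 to 119) from HFpEF-scr (87.1 to 96.1), and Mrps27 in HFpEF-FoxO1-sh (49.9 to 55.4) lies within the range of HFpEF-scr (48.1 to 55.9).

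These falls were small, and a part of them lost their call when 1 library was left out. Such a fit also has fewer libraries, and what this adds was not tested. Mrpl4, Mrps15, Mrps27 and Mrps30 stayed called in each of the 9 fits that left out 1 library. Mrpl37 missed without HFpEF-scr 2 (edgeR, adjusted p = 0.0560), Mrpl9 without control 3 (0.0560) or HFpEF-scr 4 (0.0512), Mrps7 and Mrps26 in 5 of the 9 fits each, and Mrpl12 and Mrps35 in 7 each, with adjusted p up to 0.131. The count was 5 without control 3 or HFpEF-scr 2, 6 without control 2, and 7 without control 5 or HFpEF-scr 3. With both HFpEF-scr 1 and 2 left out, 1 gene was called, Mrps27 (edgeR, adjusted p = 0.0322), with Mrpl4 at 0.05001, on medians of -0.09 for the large and -0.14 for the small subunit.

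By function, genes with and without a bacterial counterpart were alike in sign. Over all tested genes 3.70% fell. The classes below are small, and differences of their counts from that share were not tested. In the large subunit 3 of 30 with a counterpart fell (median -0.09) and 1 of 18 without one (-0.10), and in the small subunit 3 of 16 (-0.11) and 3 of 10 (-0.14). At the stalk and its base 1 of 5 fell, Mrpl12, with a median of -0.10, and of 8 genes at the central protuberance none fell (median -0.11). None of 8 listed for the exit of the nascent chain fell (median -0.08). The genes tied to cardiomyopathy in people did not pass the test: Mrpl3 was at -0.09 ± 0.04 and Mrpl44 at -0.03 ± 0.05, while Mrps22, at -0.28 ± 0.09, had the lowest estimate of all 77 with a wide spread (edgeR, adjusted p = 0.0703). The paralogs Mrps18a, Mrps18b and Mrps18c, which bind at 3 different sites of the ribosome, were at -0.15 ± 0.06, -0.17 ± 0.08 and 0.12 ± 0.08, the last being the highest estimate of the 77, and none was called. The values of Mrps18b and Mrps18c are uncertain, since the antisense gene Gm16279 covers 30.5% of the exon bases of the former and Gm43511, on the same strand, 23.2% of those of the latter.

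The rest of mitochondrial translation was measured beside them, in a comparison where 3.70% of all tested genes fell and 3.66% rose. Of 6 ribosome proteins under other names, Gadd45gip1 of the large subunit (log2 change -0.23 ± 0.06, edgeR, adjusted p = 0.0219) and Ptcd3 of the small (-0.16 ± 0.05, adjusted p = 0.0487) fell, and Dap3, Ict1, Chchd1 and Aurkaip1 had estimates below 0 that were not called. Of 25 assembly factors 2 fell, Rbfa, which binds the small subunit during its maturation (-0.20 ± 0.05), and Trub2, a pseudouridine synthase (-0.31 ± 0.09), on a median of -0.13. One of 15 translation factors fell, the elongation factor Tufm (-0.18 ± 0.05). A list of 20 genes held mitochondrial aminoacyl-tRNA synthetases and the amidotransferase subunits Qrsl1, Pet112 and Gatc. None of these 20 was called, with 7 lower and 1 higher at an unadjusted p under 0.05 (11.6% and 12.0% of all tested genes) and a median of -0.11. Of 18 genes of mitochondrial transcription and RNA processing 3 fell: Hsd17b10, a subunit of mitochondrial RNase P (-0.26 ± 0.04), Tbrg4 (-0.24 ± 0.04) and Ptcd1 (-0.29 ± 0.07). Among 9 regulators of nuclear genes for mitochondria, Nrf1, Gabpa, Ppargc1a and Esrra were not called and Myc rose by 1.06 ± 0.24.

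Among 81 cytosolic ribosome proteins tested 5 rose and none fell, on a median of 0.04, while 3.66% of all tested genes rose and 3.70% fell. Of 81 nuclear subunits of oxidative phosphorylation 1 rose and 7 fell, on a median of -0.05. Cardiomyocyte markers had a median of -0.12, with Myh6 and Myl2 of 8 fallen, summed levels of 86490 to 96888 CPM in HFpEF-scr against 96961 to 103504 in control, and none at 0. Fibroblast markers had a median of 0.24, with 2 of 8 risen, summed levels of 803 to 887 CPM against 711 to 823, and none at 0. Pericyte and smooth muscle markers had a median of 0.30, with Rgs5, Acta2 and Tagln of 7 risen, at summed levels of 1181 to 1267 CPM against 1094 to 1250. Endothelial markers had a median of -0.04 with Pecam1 of 6 risen. Red cell markers had a median of 0.93 with none of 7 called, at summed levels of 538 to 6024 CPM against 1031 to 1479. Among them Hbb-b2 and Hbb-bt had identical group means and estimates, so the sums and the median hold the same values under both names. No marker of these lists was at 0. In bulk tissue, fewer cells of a type and less RNA per cell cannot be told apart, and the part of these markers in the falls of the mitochondrial ribosome was not tested.

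**Figure D5:**
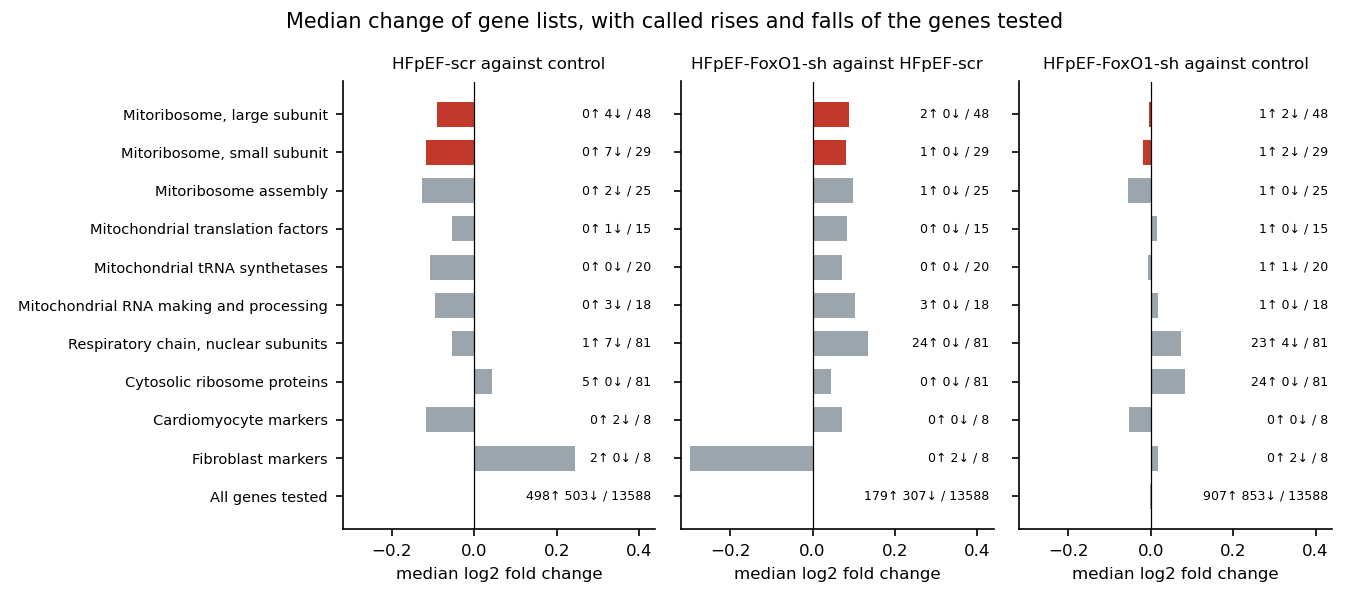
Median log2 fold change of gene lists in the 3 comparisons (bars), with the number of called rises, called falls and tested genes of each list at the right. Bars of both mitochondrial ribosome subunits (red) point down to -0.09 and -0.12 on the left, up to 0.09 and 0.08 in the middle and lie near 0 on the right, and cytosolic ribosome proteins lie above 0 in all 3.

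In the libraries labelled HFpEF-FoxO1-sh against HFpEF-scr, 3 of the 77 genes rose and none fell (edgeR), while 1.32% of tested genes rose and 2.26% fell. At an unadjusted p under 0.05 21 of the 77 were higher and 0 lower, against 9.34% and 10.4% of all tested genes. DESeq2 called 6 higher and 0 lower, against 2.53% and 3.92%, and limma voom 3 higher and 0 lower, against 1.20% and 1.83%. The estimate was above 0 for 71 of 77, with a median of 0.09, and of 0.09 for the large and 0.08 for the small subunit, where all tested genes had 0.00. The groups did not overlap, HFpEF-FoxO1-sh being the higher, for 11 genes, 9 large and 2 small, as for 4.11% of tested genes, and lower for none, against 4.23%. This comparison and the one before share the HFpEF-scr libraries, so their values stand side by side and are not 2 independent looks.

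Mrps35 was at 62.1, 60.2, 59.6 and 68.9 CPM in HFpEF-scr and at 78.9, 72.7, 72.2, 72.9 and 69.0 in HFpEF-FoxO1-sh. The groups met at 68.9 and 69.0 without crossing, and it rose by 0.22 ± 0.05 (edgeR, adjusted p = 0.0289). Mrpl14, the counterpart of L14 on the face where the subunits join, was at 41.6, 37.5, 37.0 and 39.8 CPM and then at 50.8, 47.1, 44.8, 43.2 and 43.8. It rose by 0.24 ± 0.06 (edgeR, adjusted p = 0.0351) without overlap, and had been at -0.09 ± 0.06 in HFpEF-scr against control. Tmem63b covers 11.2% of its exon bases on the other strand, where reads cannot be told apart. Mrpl41, a large-subunit protein that bacteria lack, was at 50.7, 41.97, 49.1 and 47.0 CPM and then at 55.8, 51.8, 55.3, 55.5 and 53.4. It too rose without overlap, by 0.20 ± 0.05 (edgeR, adjusted p = 0.0420). The fourth smallest p was that of Mrpl22, at the exit of the nascent chain, which was not called (0.20 ± 0.06, edgeR, adjusted p = 0.0536).

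The rises kept their sign, but their calls were often lost when 1 library was left out. Such a fit also has fewer libraries, and what this adds was not tested. In the 9 fits that left out 1 library, Mrpl14 lost its call in 5, Mrps35 in 7 and Mrpl41 in 8, on log2 changes of 0.20 to 0.27, 0.19 to 0.27 and 0.15 to 0.24. The count was 0 without HFpEF-scr 2, HFpEF-scr 3 or HFpEF-FoxO1-sh 1, 2 or 3, 1 without HFpEF-FoxO1-sh 4, 2 without HFpEF-scr 1, 4 without HFpEF-FoxO1-sh 5, and 6 without HFpEF-scr 4. No gene was called in a fit of these 2 groups alone or once HFpEF-scr 1 and 2 were both left out, where the adjusted p of Mrps35 was 0.228, on medians of 0.07 and 0.08. Of the genes that had fallen in HFpEF-scr, Mrpl4, Mrps15 and Mrps27 stood at 0.08 ± 0.05, 0.07 ± 0.05 and 0.05 ± 0.05 here, while Mrpl37 stood at 0.19 ± 0.06 and Mrps26 at 0.18 ± 0.05, none of them called. Whether these differences from Mrps35 exceed the spread was not tested.

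Beside them, Ptcd3 (0.18 ± 0.05, edgeR, adjusted p = 0.0433) and Rbfa (0.18 ± 0.05, adjusted p = 0.0432) rose, as did Ptcd1 (0.39 ± 0.07), Tbrg4 (0.19 ± 0.04) and Hsd17b10 (0.17 ± 0.04), 3 of the 18 genes of mitochondrial transcription and RNA processing. No translation factor was called, and no gene of the list of synthetases and amidotransferase subunits. At an unadjusted p under 0.05, 5 of 15 and 7 of 20 were higher, a threshold that 9.34% of all tested genes passed in that direction. Of 81 nuclear subunits of oxidative phosphorylation 24 rose and none fell, on a median of 0.13. Over all tested genes 1.32% rose and 2.26% fell. No cytosolic ribosome protein was called of 81, on a median of 0.04 (7 higher and 0 lower at an unadjusted p under 0.05). Myc fell by 1.03 ± 0.24. Cardiomyocyte markers had a median of 0.07 with none called, and fibroblast markers of -0.30 with 2 of 8 fallen, at summed levels of 642 to 814 CPM in HFpEF-FoxO1-sh. Macrophage markers had a median of -0.41 with 3 of 7 fallen, at summed levels of 124 to 158 CPM against 168 to 219 in HFpEF-scr. Of 6 endothelial markers Pecam1 fell (median -0.11), and none of the 7 pericyte and smooth muscle markers (median -0.15) or of the 7 red cell markers (median -1.22) was called. That -1.22 is the estimate of both Hbb-b2 and Hbb-bt, which were identical here too. No marker of these lists was at 0, and their part in the rises was not tested.

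In the libraries labelled HFpEF-FoxO1-sh against control, the genes as a group were near 0: 2 rose and 4 fell (edgeR), while 6.68% of tested genes rose and 6.28% fell. The median log2 fold change was -0.01 over all 77, 0.00 in the large subunit and -0.02 in the small, with 32 estimates above 0 and 45 below. Groups did not overlap for 1 higher gene, Mrps9, and 2 lower, Mrps27 and Mrpl52, against 6.62% and 5.53% of tested genes. Mrps27, at 53.9, 55.3, 55.4, 53.6 and 49.9 CPM, was below every control and fell by 0.18 ± 0.05 (edgeR, adjusted p = 0.0177). Mrpl4, at 95.6, 96.1, 105, 98.4 and 86.7 CPM, overlapped control in 1 library and fell by 0.20 ± 0.05 (edgeR, adjusted p = 0.0198). Mrps15 also fell (-0.15 ± 0.05, edgeR, adjusted p = 0.0480). These 3 were also called in HFpEF-scr against control, and both comparisons use the same 5 control libraries.

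Mrpl52, a protein of the central protuberance, was at 30.0, 28.5, 29.2, 28.0 and 28.3 CPM in control and at 23.4, 24.9, 26.6, 25.8 and 24.7 in HFpEF-FoxO1-sh. The groups did not overlap, and it fell by 0.20 ± 0.06 (edgeR, adjusted p = 0.0349). In the other direction, Mrps9, the counterpart of S9, was at 85.9, 81.8, 80.1, 79.8 and 84.7 CPM in control and at 97.0, 90.7, 90.1, 91.9 and 92.8 in HFpEF-FoxO1-sh. It rose by 0.17 ± 0.05 without overlap (edgeR, adjusted p = 0.0358), whereas HFpEF-scr, at 76.3, 78.7, 88.2 and 90.7 CPM, straddled control. Mrpl28, the counterpart of L28, was at 88.4, 87.8, 89.3, 88.0 and 97.5 CPM in control and at 101, 101, 108, 97.3 and 92.8 in HFpEF-FoxO1-sh, and rose by 0.15 ± 0.05 (edgeR, adjusted p = 0.0410) with overlap at control 5.

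Mrpl4 and Mrps27 stayed called in each of the 10 fits that left out 1 library, with adjusted p up to 0.0495 and 0.0499. Mrpl52 missed in 7, Mrpl28 and Mrps9 in 8 and Mrps15 in 9, and the count of 6 became 2 without control 2 or 3 or HFpEF-FoxO1-sh 1 or 2, 3 without control 1 or 4 or HFpEF-FoxO1-sh 3, and 4 without each of the other 3 libraries. In the other lists, the assembly gene Mterfd1 (0.21 ± 0.06, edgeR, adjusted p = 0.0404), the mitochondrial transcription factor Tfb2m (0.23 ± 0.05), Lrpprc, which stabilises mitochondrial messages (0.16 ± 0.04), and the isoleucyl-tRNA synthetase Iars2 (0.13 ± 0.04) rose, and the methionyl-tRNA synthetase Mars2 (-0.24 ± 0.07) and the coactivator Pprc1 (-0.23 ± 0.07) fell. Cytosolic ribosome proteins rose in 24 of 81 cases with none fallen (median 0.08). Nuclear subunits of oxidative phosphorylation rose in 23 with 4 fallen (median 0.07). Over all tested genes 6.68% rose and 6.28% fell. All 7 macrophage markers fell, with a median of -0.55, and cardiomyocyte markers had a median of -0.05 with none called. Col1a1 and Col1a2 of the 8 fibroblast markers and Cdh5 of the 6 endothelial ones also fell. Of 4 genes listed as atrial markers 2 were tested, of which Nppa fell (-1.37 ± 0.27) and Myl4 was not called (-0.03 ± 0.21). None of these markers was at 0, and their part in the result was not tested.

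Of the head-to-head partners outside the mitochondrial ribosome, 27 were tested, with a median of -0.04 in HFpEF-scr against control. None fell and 2 rose, against 3.70% and 3.66% of all tested genes. The risen ones were Rab6a beside Mrpl48 (0.17 ± 0.04, edgeR, adjusted p = 0.0112) and Wdfy1 beside Mrpl44 (0.17 ± 0.05, edgeR, adjusted p = 0.0451). Ptcd2, beside Mrps27, was at -0.19 ± 0.07 and not called (edgeR, adjusted p = 0.0984). Mrpl46 and Mrps11, which share their start region, were at -0.14 ± 0.05 and -0.23 ± 0.09 there and at 0.13 ± 0.05 and 0.20 ± 0.09 in HFpEF-FoxO1-sh against HFpEF-scr, none of the 4 values called. The exons of this pair overlap on opposite strands, over 12.2% of those of Mrpl46 and 7.97% of those of Mrps11. Mrpl44 and Mrpl40, with FOXO letters in their promoters, were at 0.10 ± 0.05 and 0.10 ± 0.06 in HFpEF-FoxO1-sh against HFpEF-scr and not called.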

How the data were processed

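Poly(A) RNA of left ventricles was sequenced in 14 libraries, per the labels' protocols, with a Swift Biosciences kit. The submitters' processing notes name Bowtie2 2.1.0, RSEM 1.2.15 and mm10. Annotation, strand setting and filters are not given in the sources used here. The authors deposited expected counts per gene, as RSEM divides reads between genes. Of the 77 genes, 57 had whole counts in every library and 12 in none, among them the called Mrpl9 and Mrps27. The others, such as Mrpl41, not whole in 12 libraries, were whole in part. Reads shared with copies can shift any of these 20. The library number in each sample's description identified its column.

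Expected counts were rounded and tested in edgeR 4.0.16 (R 4.3.3) with filterByExpr, TMM scaling and a quasi-likelihood fit of all 14 libraries with 1 coefficient per group. Adjusted p are Benjamini-Hochberg values over 13588 genes, with calls under 0.05. An SE is the size of the log2 fold change divided by the square root of F. Log2 CPM used a prior count of 2. Intervals and tests cover counting error and the spread between libraries, of 13174118 to 21247155 counts each. Alternatives were DESeq2 1.42.0, limma 3.58.1 voom, other scaling, filters and prior counts, a fit of the 2 groups compared, the replicate number as a block, subunits by place, and each library left out in turn. The pipeline was also run on simulated data, and the outcome of that run is not given here.

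Members, gene lists and the rule for named genes were chosen with earlier results of these data known. The rule took, per comparison, up to 8 called members by smallest p (or the 4 smallest), the 3 extremes of level per length and of spread, misplaced names, the Mrps18 family, Mrpl12, cardiomyopathy genes, and up to 3 called genes of each other list. Patterns for the ribosome and respiratory chain lists were corrected once the symbols of the table were seen. Positions and exon lengths are those of GENCODE vM21, and promoters those of RefSeq on GRCm38.p6. The promoter search and figures used Python 3.11.15 and matplotlib 3.10.9.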

Additional observations from a re-analysis of the deposited data

Results flagged for a closer look

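A library apart was looked for in 102 groups of 4 or 5 libraries, most of them for a named gene or a subunit mean. Of these, 7 had a library that stood apart from the others by Dixon's criterion, which chance alone meets in about 1 of 20. Mrpl9 was at 86.7 CPM in control 3, the others being at 75.9 to 78.8, and it lost its call against HFpEF-scr without that library. Mrpl52 was at 29.9 CPM in HFpEF-scr 1, the others at 24.4 to 25.2. Without it, Mrpl52 passed the threshold against control (edgeR, adjusted p = 0.0263). Mrpl28 was at 97.5 CPM in control 5, the others at 87.8 to 89.3. Mrps21 was at 66.8 CPM in control 4, the others at 73.2 to 75.2.

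Library 5 of HFpEF-FoxO1-sh was low 3 times. Mrpl34 was at 37.3 CPM there against 46.0 to 49.5 in its group, Mrpl12 at 103 against 120.1 to 125, and the mean log2 CPM of the small-subunit genes at 5.27 against 5.37 to 5.39. Its 15211209 counts were within the range of the other libraries.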

How the results depend on the processing

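No called value changed sign. Over 1530 settings of 30 named genes, 1408 kept their side of the threshold, 25 of them with a change of sign in an estimate called in neither fit, 112 kept the direction but lost the call and 10 gained one. Subunit medians and the step between subunits moved by less than the spread, though 5 values near 0 changed sign: the step of HFpEF-FoxO1-sh against HFpEF-scr went from -0.0027 to 0.0040 without HFpEF-scr 3, and the large-subunit median of HFpEF-FoxO1-sh against control from -0.0032 to 0.018 without HFpEF-FoxO1-sh 5. Fits of the 2 groups compared gave 5 mitochondrial ribosome genes and 504 genes in all for HFpEF-scr against control, and 0 of the former for HFpEF-FoxO1-sh against HFpEF-scr. For HFpEF-FoxO1-sh against control such a fit called 2080 genes in all, against 1760. Without HFpEF-scr 1 and 2 together, the counts were 1 and 560 for the first and 0 and 54 for the second. DESeq2 called 6 and 876 in the second. The cause was not tested.

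With 1 library left out, counts of mitochondrial ribosome genes ran from 5 to 13, from 0 to 6 and from 2 to 4 in the 3 comparisons, and counts of all genes from 537 to 1106, from 162 to 668 and from 1228 to 1683, against 1001, 486 and 1760 in full.

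Deviations of same-numbered libraries correlated between -0.19 and 0.11. Differently numbered libraries were not compared, so these values do not settle whether replicate numbers pair the libraries. With the replicate block, 10, 2 and 3 mitochondrial ribosome genes were called in the 3 comparisons, against 11, 3 and 6, and 770, 291 and 1488 genes in all. Depth was not varied, so what it limits was not tested.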
